A study of Mus musculus with 6 samples.

Results

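The genes described here act where the autophagosome membrane grows. They are the WIPI proteins Wipi1, Wipi2 and Wdr45, the lipid transfer proteins Atg2a and Atg2b, the membrane proteins Atg9a and Vmp1, the tethering factor Epg5 and the conjugation scaffold Atg16l1. All probe sets assigned by the array's annotation to exactly 1 of these 9 genes were taken. That gave 14 probe sets of 7 genes, out of 20380 probe sets with 1 gene on the array: 5 of Wipi1, 2 each of Wipi2, Wdr45 and Vmp1, and 1 each of Atg2a, Atg2b and Atg16l1. The signals of Atg9a and Epg5 were not analysed here.

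The cells were mouse embryonic fibroblasts starved for 6 h (3 arrays), set against fibroblasts kept in normal growth medium, the controls (3 arrays). The labels call the cells of both groups wild type and give neither the mouse strain nor the nutrients or serum removed. The question was which transcripts of this step of autophagy differ between starved and fed cells. The titles number the arrays of each group as biological replicates but do not say whether they came from separate cultures, so the p-values measure how these arrays vary, and that spread may be technical.

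When cells run short of nutrients, a kinase complex around ULK1 and a lipid kinase complex around VPS34 mark a patch of the endoplasmic reticulum with a phosphoinositide. WIPI proteins are propeller-shaped and bind this lipid. Human WIPI2 brings in ATG16L1 and with it the enzymes that attach LC3 to the membrane, while WDR45, also called WIPI4, binds ATG2. ATG2 proteins carry lipids from the endoplasmic reticulum to the growing cup, and ATG9A and VMP1 move lipids between the leaflets of the membranes at its ends. EPG5 tethers the closed autophagosome to late endosomes and lysosomes. In human cells WIPI1 is known as a target of TFEB, a transcription factor of lysosomal and autophagy genes.

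The promoters of Wipi1 and Vmp1 are shown as examples. The brightest probe set of each rose in starved cells, and the printed stretch lies outside the annotated gene. The brightest sets of Wipi2, Wdr45 and Atg2a rose too, and their promoters are not printed. For Vmp1, which has 3 promoter windows, the stretch comes from the first. The sequences are from RefSeq (GRCm38.p6), 250 bases long, read 5′ to 3′ on the minus strand up to the base before the transcript start. Capitals mark the GC box GGGCGG or its reverse complement, and CCAAT or its reverse complement.
Wipi1, chr11:109611390-109611639: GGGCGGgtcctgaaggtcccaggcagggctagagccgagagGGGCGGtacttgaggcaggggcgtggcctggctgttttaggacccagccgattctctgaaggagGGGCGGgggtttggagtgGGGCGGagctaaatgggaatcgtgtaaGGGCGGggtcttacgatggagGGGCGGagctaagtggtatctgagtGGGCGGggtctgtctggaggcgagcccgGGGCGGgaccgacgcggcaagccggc
Vmp1, chr11:86683837-86684086: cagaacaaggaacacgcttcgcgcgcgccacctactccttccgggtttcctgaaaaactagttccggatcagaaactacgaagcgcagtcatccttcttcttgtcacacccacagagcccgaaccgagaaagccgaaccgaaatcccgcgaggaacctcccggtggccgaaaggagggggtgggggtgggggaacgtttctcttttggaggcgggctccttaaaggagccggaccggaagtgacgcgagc

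The Wipi1 stretch held 8 GC boxes and the Vmp1 stretch 0. Only 0.155% of the 32851 RefSeq promoter stretches of this length held at least 8, a motif looked for after the Wipi1 sequence had been seen. The core of the TFEB site, CACGTG, which is its own reverse complement and lies within the longer CLEAR element, was in 0 of the 9 promoter windows of the 7 genes matched (Wipi1, Wipi2, Wdr45, Atg2a, Atg2b, Atg9a and Vmp1, which had 3 windows). These windows run from 250 bases before to 50 bases after a start, and 7.15% of all such windows held CACGTG. The core bound by FoxO factors, TGTTTAC, searched on both strands, was also in 0 of the 9 windows, against 3.65% of all. The GC box was in windows of Wipi1, Wipi2 and Atg2b (35.7% of all windows) and CCAAT in windows of Wdr45, Atg2a and Atg9a (37.4% of all). These matches describe letters in short windows and show nothing about binding.

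The table holds log2 array signals made by the authors with RMA, which fixes the overall distribution of each array, so every difference below is relative to the whole of the measured transcripts. The number of arrays limits the precision. Array medians lay between 6.7328 and 6.8145, and no array stood apart from its group, with mean correlations to the other arrays of the group of 0.996 or more. Fibroblast markers were bright (median at percentile 97.9 of all probe sets), although Thy1 and Fap were dim (percentiles 28.7 and 27.4). Markers of other cell types were mostly dim, with median percentiles of 14.3 for macrophage and blood, 24.1 for epithelial, 12.4 for endothelial and 34.2 for neural and glial lists. Of these 31 markers 3 were higher in starved cells (Cd68, Cdh1, Map2) and 3 lower (Cd14, Kdr, Pecam1). The mean log2 signal of the macrophage list lay between 4.34 and 4.54 in starved arrays and between 4.44 and 4.52 in control arrays. The groups also overlapped for the epithelial list (4.43 to 4.48 starved, 4.44 to 4.50 control). They were separate for the endothelial list (3.63 to 3.72 starved, 3.75 to 3.78 control) and the neural and glial list (5.02 to 5.09 and 4.95 to 5.01). The fibroblast list was separate too (10.83 to 10.89 and 10.71 to 10.79), with 6 of its 12 markers higher, 3 lower and 3 neither. Whether other cells had a part in the results was not tested. An array signal also cannot tell fewer cells of a type apart from less RNA per cell.

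Starved fibroblasts had higher signals for Wipi1, on its brighter probe sets, and for Wdr45 and Atg2a. In limma with Benjamini-Hochberg adjustment over all 20380 probe sets, 7 of the 14 member probe sets were called higher in starved cells (50%), against 20.4% of all probe sets, and 1 was called lower, against 20.5%. The call is an adjusted p under 0.05, and 40.9% of all probe sets were called in either direction. These background shares include dim probe sets, which were called less often. With the dimmest 40% of probe sets left out, 3977 of the remaining sets were still higher and 3516 lower. The members' counts stayed at 7 and 1, out of fewer sets. Wipi1 1427323_s_at and 1452392_a_at (percentiles 38.8 and 26.8) were among the sets left out. The background share is therefore larger among brighter sets than the shares given here. The 7 calls fell on 5 genes: Wipi1, Wipi2, Wdr45, Atg2a and Vmp1. Starved and control arrays did not overlap for 9 of the 14 probe sets, against 52.2% of all probe sets. The median log2 difference was 0.20 over the members and −0.04 over all probe sets. Each difference is the starved mean minus the control mean of log2 signals, given with its SE, and group levels are log2 means ± SD over n = 3 arrays. Signals of different probe sets are not comparable as amounts of transcript.

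**Figure D1:**
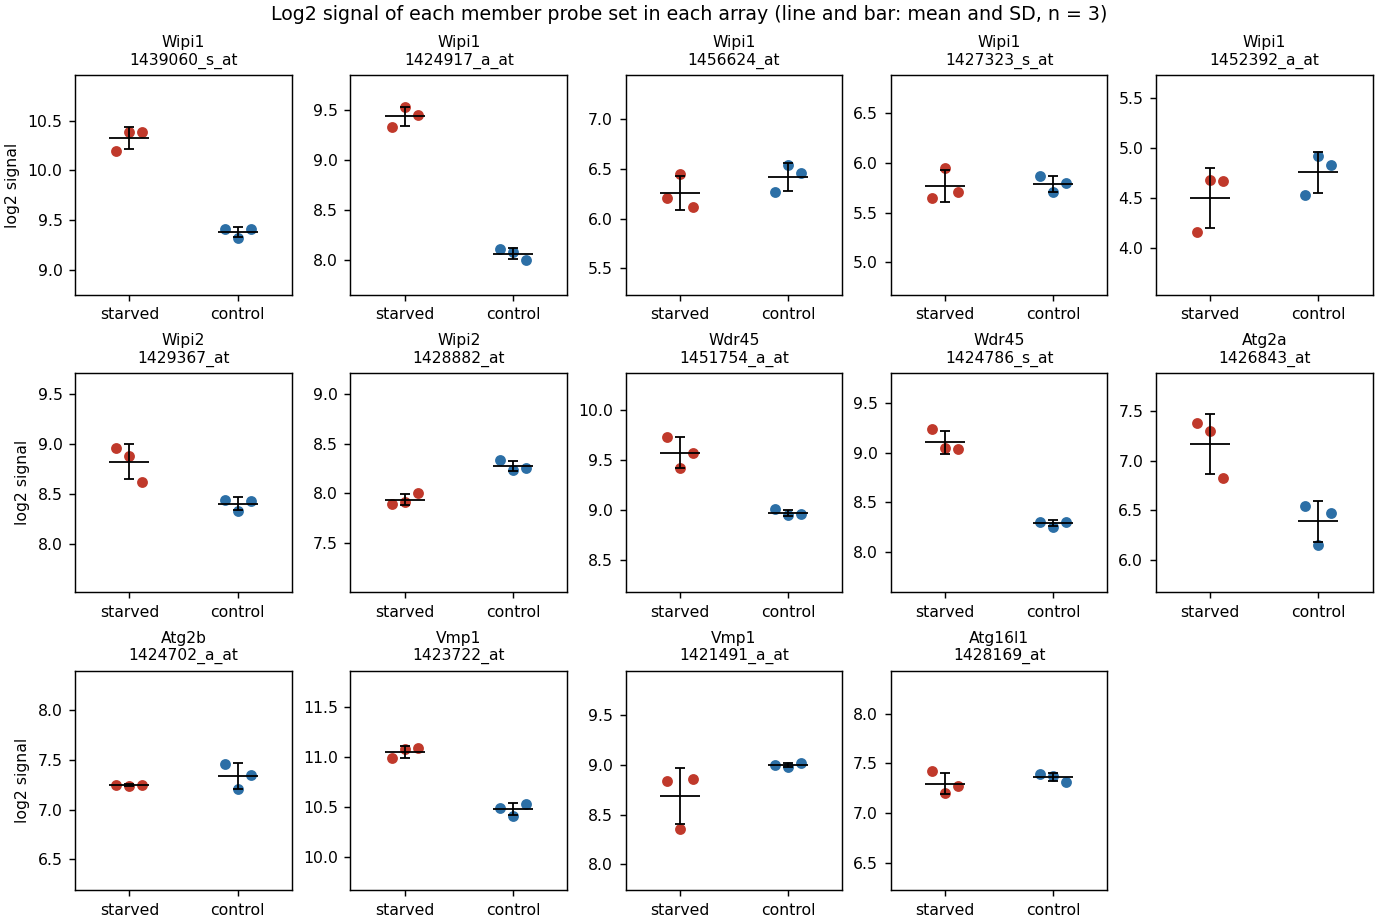
Log2 signal of the 14 member probe sets, 1 panel each, with starved arrays at the left and control arrays at the right. Points are arrays 1 to 3 of a group from left to right, lines and bars are mean and SD, and every panel spans the same height. The starved points lie above all control points for 2 of 5 Wipi1 panels, both Wdr45 panels, Atg2a, and 1 of 2 panels each of Wipi2 and Vmp1.

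Wipi1, a phosphoinositide-binding propeller that gathers on early autophagic membranes, rose on its 2 brightest probe sets. On 1424917_a_at the log2 signal was 9.33, 9.53 and 9.45 in starved cells, against 8.11, 8.07 and 8.00 in control cells. All starved arrays lay more than 1 log2 unit above every control array. The difference was 1.38 (SE 0.08, 95% CI 1.20 to 1.56), a 2.60-fold rise (adjusted p = 2.42e-06 in limma), and this was rank 171 of the 20380 differences from the highest down.

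On 1439060_s_at, the brightest Wipi1 probe set at percentile 87.3 of all signals, starved arrays had 10.20, 10.39 and 10.39 and control arrays 9.41, 9.33 and 9.41. The groups again did not overlap, and the fold was 1.92 (difference 0.94, SE 0.08, adjusted p = 2.31e-05 in limma). Within each array, 1424917_a_at lay below 1439060_s_at by less in starved cells (0.89 ± 0.05) than in control cells (1.32 ± 0.08). The rises on the 2 probe sets therefore differed by 0.44, a shift in which the groups did not overlap (exact two-sided permutation p = 0.1, the smallest that 3 arrays against 3 can give; 0.13 after adjustment over 13 pairs of probe sets of a gene).

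The other 3 Wipi1 probe sets were dimmer and were not called as deposited. The set 1456624_at had 6.21, 6.45 and 6.11 in starved cells and 6.27, 6.54 and 6.46 in control cells. These ranges overlapped, and the difference was −0.17 (95% CI −0.41 to 0.08, adjusted p = 0.249 in limma). According to the annotation it was designed from the same source sequence as 1439060_s_at, the set that rose by 0.94. The set 1427323_s_at had 5.64, 5.95 and 5.70 in starved cells and 5.87, 5.71 and 5.80 in control cells, with a difference of −0.03 (95% CI −0.24 to 0.19). The dimmest, 1452392_a_at, had 4.16, 4.68 and 4.66 in starved cells and 4.53, 4.92 and 4.83 in control cells, with a difference of −0.26 (95% CI −0.61 to 0.09). Starved replicate 1 was the lowest array of this set, and without it the difference was −0.09. These last 2 sets share a source sequence with each other, and in neither were the groups separate. With centring on the hybridization spike-ins 1456624_at (−0.35, adjusted p = 0.0134 in limma) and 1452392_a_at (−0.45, adjusted p = 0.0145) were called lower. With the poly-A spike-ins all 3 dim sets were called lower: 1456624_at by 0.59, 1427323_s_at by 0.45 and 1452392_a_at by 0.68. The bright sets stayed called higher under both centrings.

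The 5 Wipi1 probe sets thus split by signal. The 2 that rose lay at percentiles 87.3 and 75.1 of all signals, and the 3 that were not called as deposited at 44.2, 38.8 and 26.8. In all 6 within-array comparisons of a bright with a dim Wipi1 set the groups did not overlap, with gaps between 0.97 and 1.64, each at exact permutation p = 0.1. The intervals of the dim sets do not reach the rises on the bright sets. Averaging all 5 gave a smaller difference of 0.37 (SE 0.08), still called (adjusted p = 0.00447 in limma). Which transcripts each set binds cannot be read from the files, and neither this nor the level of the dim sets was tested as a cause.

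**Figure D2:**
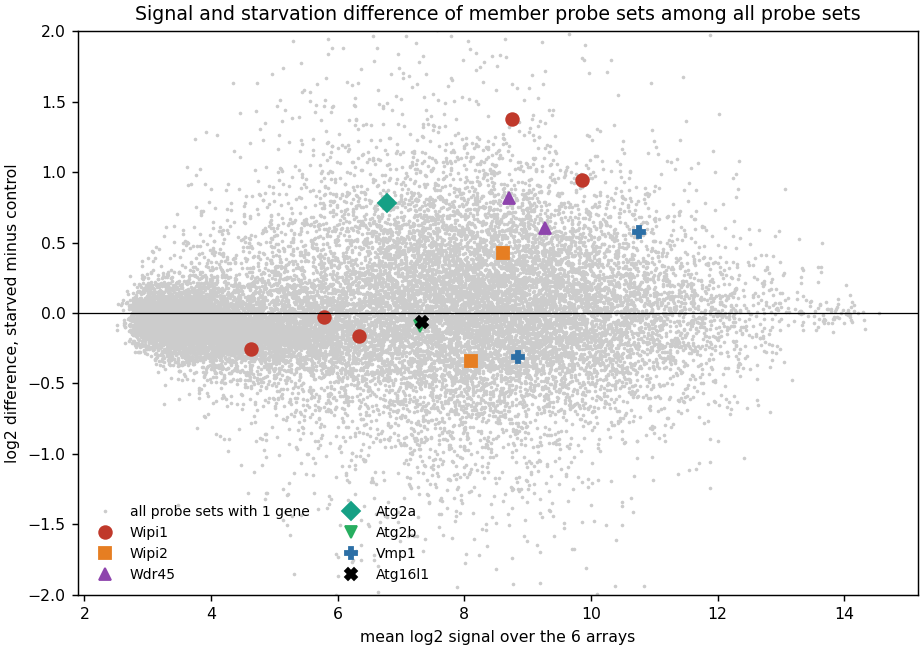
Mean log2 signal over the 6 arrays (x) against the log2 difference, starved minus control (y), for all probe sets with 1 gene (grey) and the 14 member probe sets (symbols by gene). The y axis stops at 2 log2 units either way, which leaves 86 probe sets outside it. The 2 bright Wipi1 sets stand at 0.94 and 1.38, while the 3 dim ones lie between −0.26 and −0.03.

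Wipi2, the WIPI protein that in human cells recruits ATG16L1, gave opposite results on its 2 probe sets. On 1429367_at starved arrays had 8.96, 8.88 and 8.62 and control arrays 8.44, 8.33 and 8.43. Starved replicate 3 was the lowest of its group but lay above all controls, and the set rose by 0.42 (SE 0.10, adjusted p = 0.00698 in limma). On 1428882_at starved arrays had 7.90, 7.91 and 8.00 and control arrays 8.33, 8.24 and 8.26. Here all starved arrays lay below all controls, and the set fell by 0.34 (SE 0.07, adjusted p = 0.00441 in limma).

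Within the arrays, 1429367_at lay above 1428882_at by 0.89 ± 0.23 in starved cells and 0.13 ± 0.04 in control cells, without overlap (exact permutation p = 0.1). The mean of both sets was not called (0.04, SE 0.07, adjusted p = 0.637 in limma), so the values show an unequal change of 2 probe sets and no direction for the gene. Among all 4956 genes with several probe sets, 133 (2.68%) had sets called in opposite directions. The rise on 1429367_at was also lost when arrays were centred on their hybridization spike-ins (0.23, adjusted p = 0.0753) or poly-A spike-ins (−0.0040, adjusted p = 0.974), whereas the fall on the other set was called under both.

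Wdr45, the X-linked WIPI gene whose human counterpart is mutated in a childhood neurodegeneration with brain iron, rose on both of its probe sets. On 1424786_s_at starved cells had 9.24, 9.04 and 9.03 and control cells 8.31, 8.26 and 8.31. Control arrays were within 0.05 of each other, and the starved arrays lay well above them, a 1.76-fold rise (difference 0.81, SE 0.08, adjusted p = 5.24e-05 in limma). On 1451754_a_at starved cells had 9.73, 9.42 and 9.58 and control cells 9.01, 8.95 and 8.96. The groups did not overlap there either, and the rise was 1.52-fold (difference 0.61, SE 0.09, adjusted p = 0.000565 in limma). With poly-A centring this second rise was 0.18 and not called (adjusted p = 0.176).

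Of the ATG2 lipid transfer proteins Atg2a rose and Atg2b was not called as deposited. Atg2a had 7.38, 7.30 and 6.82 in starved cells and 6.55, 6.15 and 6.47 in control cells on its only probe set, 1426843_at. Both groups were spread more widely than for most members, and starved replicate 3 was the nearest to the controls, but no starved array reached them. The rise was 1.71-fold (difference 0.78, SE 0.15, 95% CI 0.43 to 1.13, adjusted p = 0.00319 in limma). Atg2b, on 1424702_a_at, had 7.25, 7.24 and 7.25 in starved cells and 7.46, 7.21 and 7.35 in control cells. The starved values lay inside the control range, and the difference was −0.09 (95% CI −0.28 to 0.09, adjusted p = 0.394 in limma). The 95% intervals of the 2 genes do not overlap, and the difference between them was not tested. Atg2b was called lower with centring on the hybridization spike-ins (−0.28, adjusted p = 0.0229 in limma) and on the poly-A spike-ins (−0.52, adjusted p = 0.000568).

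Vmp1, a membrane protein of the endoplasmic reticulum that scrambles lipids beside ATG2, also split between its probe sets. On the brighter set, 1423722_at, starved cells had 10.98, 11.08 and 11.09 and control cells 10.48, 10.41 and 10.53. Both groups were tight and did not overlap, with a 1.49-fold rise (difference 0.58, SE 0.07, adjusted p = 0.000234 in limma). With poly-A centring this became 0.15 and was not called (adjusted p = 0.187).

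On 1421491_a_at starved cells had 8.84, 8.36 and 8.86 and control cells 9.002, 8.98 and 9.02. All starved arrays lay below the controls, but starved replicate 2 lay far below the other two, and the difference of −0.31 was not called (SE 0.13, adjusted p = 0.0757 in limma). Without that array it was −0.15 (adjusted p = 0.157), and without starved replicate 3 it was −0.40 and called (adjusted p = 0.0487). It was also called lower with a further quantile normalization (−0.36, adjusted p = 0.0477), with array weights (−0.38, adjusted p = 0.0316) and with both spike-in centrings (−0.50 and −0.74). Within the arrays the brighter set lay above the other by 2.37 ± 0.31 in starved cells and 1.47 ± 0.04 in control cells, without overlap (exact permutation p = 0.1). The mean of both sets was not called (0.13, SE 0.08, adjusted p = 0.206 in limma). RefSeq places the microRNA gene Mir21a within the Vmp1 gene, and the table gives no mature microRNA level.

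Atg16l1, the scaffold that places LC3 conjugation at the membrane, had 7.42, 7.20 and 7.27 in starved cells and 7.39, 7.38 and 7.31 in control cells on 1428169_at. The groups overlapped, and the difference was −0.06 (95% CI −0.24 to 0.12, adjusted p = 0.568 in limma). The upper bound lies below the rises on both Wdr45 sets and the 2 bright Wipi1 sets. Atg16l1 was called lower with centring on the hybridization spike-ins (−0.25, adjusted p = 0.0486 in limma) and on the poly-A spike-ins (−0.49, adjusted p = 0.00103).

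**Figure D3:**
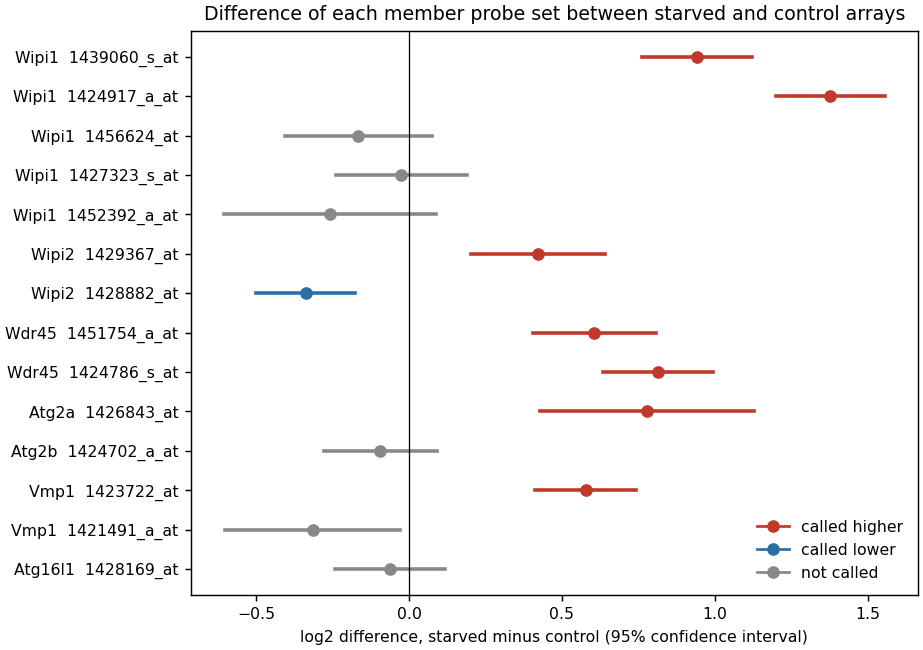
Log2 difference, starved minus control, of the 14 member probe sets as deposited, with the 95% confidence interval of the limma fit (bars) and the call at an adjusted p under 0.05 (colours). The 7 sets called higher range from 0.42 (Wipi2) to 1.38 (Wipi1), and the set called lower is the other Wipi2 set, at −0.34. The call of the Wipi2 rise is lost with centring on either kind of spike-in.

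The Wipi1 rise was compared with the other members within each array, where 3 arrays against 3 cannot give an exact p below 0.1. Its brightest probe set lay above the mean of the brightest sets of the other 6 genes by 1.58, 1.87 and 1.95 in starved arrays and by 1.19, 1.25 and 1.23 in control arrays. The groups did not overlap, and the gap was larger by 0.57 in starved arrays (exact two-sided permutation p = 0.1). This excess depended on the Wipi1 set used. With the mean of all 5 Wipi1 sets against the same 6 sets, a comparison chosen after seeing the data, the gap was −1.27 ± 0.21 in starved arrays and −1.27 ± 0.11 in control arrays (difference 0.0030, exact permutation p = 1), and with the mean of all sets of every gene the difference was 0.12 (exact permutation p = 0.5). Such a difference within an array does not move when an array is centred on another value. Of the single comparisons, the differences on 1439060_s_at and 1424917_a_at exceeded that of the brightest set of Wipi2 by 0.52 and 0.96, of Wdr45 by 0.34 and 0.77, of Vmp1 by 0.36 and 0.80, of Atg2b by 1.04 and 1.47 and of Atg16l1 by 1.00 and 1.44, each without overlap between the groups. Against Atg2a the groups were separate for 1424917_a_at (0.60) and overlapped for 1439060_s_at (0.16, exact permutation p = 0.7). Over the 30 comparisons of a Wipi1 set with another gene the groups were separate in 23, in opposite directions. In 11, all with a bright Wipi1 set, the Wipi1 difference was the larger one. In the other 12, the 3 dim Wipi1 sets against Wipi2, Wdr45, Atg2a and Vmp1, it was the smaller one, with values of Wipi1 minus the other gene between −1.04 and −0.45. The smallest adjusted exact permutation p was 0.13.

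Other genes whose signal moved over the 6 arrays most like the brightest Wipi1 set, by Euclidean distance between centred log2 profiles among 12130 named genes, were Crbn, Pkp2, Tnpo1, Mt1 and Clk4. Their distances lay between 0.0884 and 0.107 and their differences between 0.88 and 0.98. Choosing genes by this distance places their differences near the 0.94 of that Wipi1 set, so the closeness is no separate result. Crbn is a substrate receptor of a ubiquitin ligase, Pkp2 a desmosome protein, Tnpo1 a nuclear import receptor, Mt1 a metallothionein and Clk4 a splicing kinase.

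The balance of the members depended on how the arrays were scaled. As deposited 7 sets were higher and 1 lower, beside 4156 and 4183 of all probe sets. Under centring on each array's own median the members' counts were again 7 and 1, beside 3677 and 5131 of all. With the hybridization spike-ins 6 were higher and 6 lower, beside 2581 and 9548 of all. With the poly-A spike-ins 4 were higher, namely both bright Wipi1 sets (0.95 and 0.52), Wdr45 1424786_s_at (0.39) and Atg2a (0.35), and 7 lower. The 7 were the dim Wipi1 sets 1456624_at (−0.59), 1427323_s_at (−0.45) and 1452392_a_at (−0.68), Wipi2 1428882_at (−0.76), Vmp1 1421491_a_at (−0.74), Atg2b (−0.52) and Atg16l1 (−0.49). All of these but Wipi1 1427323_s_at were the 6 called lower with the hybridization spike-ins. The spike-ins themselves were higher in starved arrays, the 18 hybridization sets by 0.19 and the 24 poly-A sets by 0.43, and these centrings subtract those shifts from every probe set alike. Under poly-A centring 15042 of all probe sets were lower and 1269 higher. The shift is 1 value per array with its own error, shared by all probe sets, so calls under it are not separate evidence for each gene.

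**Figure D4:**
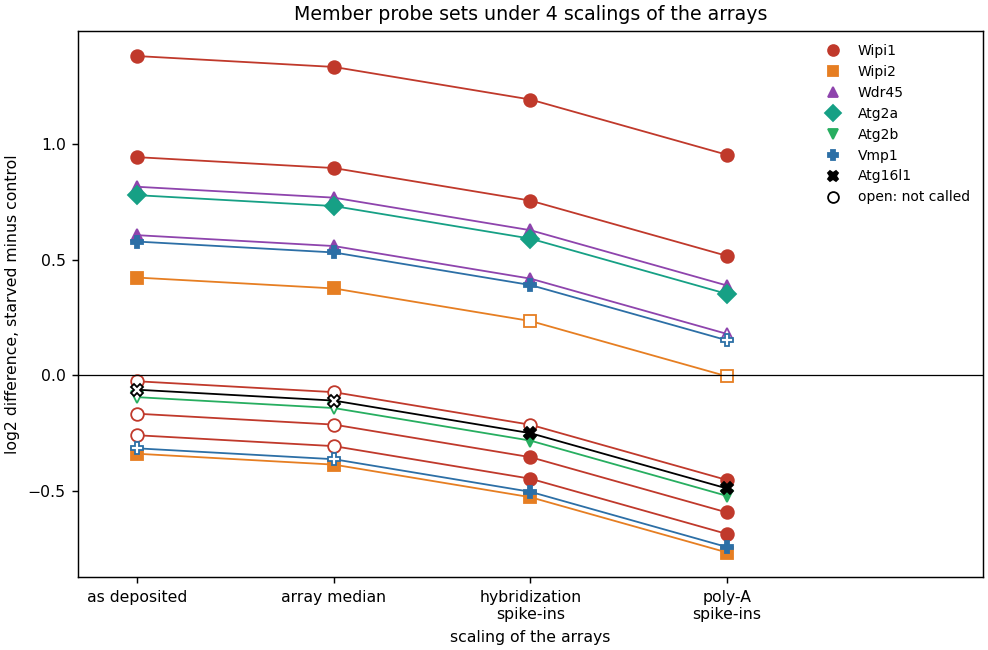
Log2 difference, starved minus control, of the 14 member probe sets (lines, symbols by gene) under 4 scalings of the arrays. Filled symbols are called at an adjusted p under 0.05 and open ones are not. Both bright Wipi1 sets, 1 Wdr45 set and Atg2a remained called higher throughout, while 1 set each of Wipi2, Wdr45 and Vmp1 lost its call with the poly-A spike-ins, where the Wipi2 set lay at −0.0040. With the poly-A spike-ins 7 sets were called lower, among them the dim Wipi1 sets, Atg2b and Atg16l1.

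Genes of the steps before and after membrane growth were set beside the members, each by its brightest probe set. Of 56 measured genes in 5 lists 27 were called higher in starved cells (48.2%), 9 lower (16.1%) and 20 neither. Among all 12393 genes 22.1% were higher, 22% lower and 44.1% either. These shares include dim genes, whereas the median signal of the listed genes lay at percentile 71, so the levels are not matched. The median difference was 0.20 over the lists and −0.05 over all genes. With centring on the hybridization spike-ins 14 of the 56 were higher and 16 lower, and with the poly-A spike-ins 5 and 27. Poly-A centring takes 0.43 off every difference, so each smaller rise named for these genes lies below 0 under it.

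The kinase complexes upstream of the WIPI proteins had mostly higher signals in starved cells as deposited. Of 12 genes of the ULK and VPS34 complexes 10 were higher, 1 lower and 1 neither, with a median of 0.44. Rb1cc1, the scaffold of the ULK complex, had 9.71 ± 0.03 in starved and 8.48 ± 0.03 in control cells (difference 1.23, adjusted p = 6.13e-07 in limma). Atg14, which directs VPS34 to the autophagy site, rose by 0.70 (adjusted p = 6.22e-05 in limma). Nrbf2, a subunit of the same lipid kinase complex, fell by 0.34 (adjusted p = 0.00457 in limma).

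Other factors of the membrane itself were mixed. Of 12 measured phosphoinositide phosphatases, scramblases and membrane traffic genes 4 were higher, 2 lower and 6 neither (median 0.18). Sh3glb1, which binds and bends membranes and works with Atg9a, rose by 0.55, and Mtmr14, a phosphatase that removes the lipid WIPI proteins bind, by 0.42. Tmem41b, a scramblase of the endoplasmic reticulum that partners Vmp1, had 8.93 ± 0.07 in starved and 9.34 ± 0.04 in control cells and fell by 0.41 (adjusted p = 0.000882 in limma). The traffic GTPase Rab1b fell by 0.23. Wdr45b, the remaining WIPI gene and named here for that reason, had 10.19 ± 0.05 in starved and 10.04 ± 0.04 in control cells and was not called (difference 0.15, adjusted p = 0.0979 in limma).

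Downstream genes also went both ways. Of 12 ATG8 proteins and conjugation enzymes 5 were higher, 2 lower and 5 neither (median 0.14), by the brightest probe set of each. Map1lc3b and Atg5 were neither by that set (0.16 and −0.09), but other sets of both genes were called. Those of Map1lc3b rose by 0.62 and 0.69 (adjusted p = 0.000152 and 9.2e-05 in limma). That of Atg5 had a difference of −0.39 (adjusted p = 0.00451 in limma). The ATG8 family members Gabarapl1 and Map1lc3a rose by 0.88 and 0.56, while the conjugating enzyme Atg3 fell by 0.56 and the protease Atg4b by 0.28. Of 13 genes for fusion with the lysosome 6 were higher, 3 lower and 4 neither (median 0.06). The tethering subunit Vps16 rose by 0.52 and the SNARE protein Stx17 by 0.40, while Vps18, a subunit of the same tether, fell by 0.34 and the SNARE protein Ykt6 by 0.33. Of 7 genes of the TFEB family and its feedback 2 were higher, 1 lower and 4 neither (median 0.08). Mitf, a relative of TFEB, rose by 0.62 and the lysosomal calcium channel Mcoln1 by 0.33, and folliculin, Flcn, fell by 0.25. Tfeb itself, named outside the rule, was not called (0.17, adjusted p = 0.159 in limma).

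**Figure D5:**
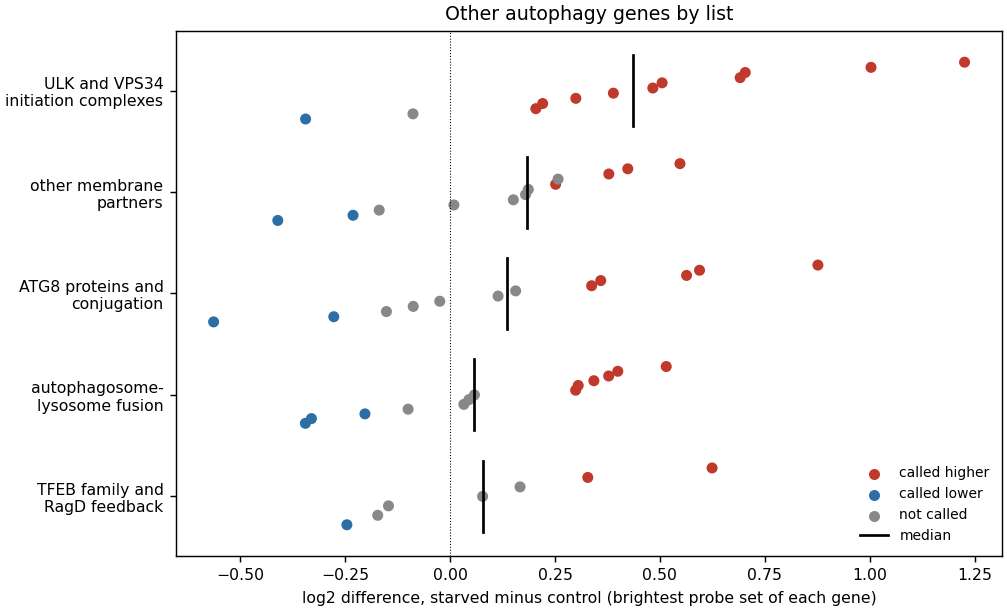
Log2 difference, starved minus control, of 56 other autophagy genes in 5 lists as deposited, each point the brightest probe set of a gene, coloured by its call, with the median of each list as a black line. The ULK and VPS34 list lies furthest to the right, with 10 of 12 genes higher, and all lists hold genes called in both directions. Under poly-A centring 5 of the 56 were higher and 27 lower.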

How the data were processed

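The authors deposited 1 log2 value per probe set and array, made with affy and RMA per the submitters' processing notes, which give no versions. RMA corrects background, normalizes arrays by quantiles and summarises probes. Of 22690 probe sets, 64 controls, 691 with several genes and 1555 with none listed were left out. The other 20380 were named through the platform annotation (0 of 20351 symbols found by identifier in RefSeq needed updating). All 6 arrays, grouped by title, entered a two-sided fit without covariates in limma 3.58.1 under R 4.3.3 (functions lmFit, eBayes), adjusted by Benjamini-Hochberg across the probe sets. Other genes took their brightest probe set (12393 genes). Within-array differences had exact permutation tests. The fit was tested on simulated data with independent noise and far fewer changed probe sets than were called here. That test does not cover shifts shared by the probe sets of an array. Tables and plots used Python 3.11.15, pandas 2.3.3 and matplotlib 3.10.9.

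The members, lists and tests were chosen with earlier results of these data known. Named genes are every member probe set, up to 2 risen and 2 fallen genes per list with the smallest adjusted p, and the 5 profiles nearest to Wipi1. The replicate number was no term of the fit.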

Additional observations from a re-analysis of the deposited data

How the results depend on the processing

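The alternatives were other units of the fit, filters, scalings and variance models, a stricter threshold, and leaving out each array. Of 214 values of member sets 191 kept direction and call, 15 gained a call, each time lower, 3 lost a call with the same sign, and 5 changed sign. Among those that changed sign, Wipi2 1429367_at with poly-A centring lost its call as well. Both bright Wipi1 sets, Wdr45 1424786_s_at, Atg2a and Wipi2 1428882_at kept both wherever they entered. Keeping only sets ending in plain _at left out both bright Wipi1 sets and both Wdr45 sets, so their rises were not tested under that filter. The only Wipi1 set left was then 1456624_at (−0.17, adjusted p = 0.255 in limma), and no Wdr45 set was left. Taking only the brightest set of a gene gave 5 members higher and 0 lower (2735 and 2728 over all genes), the mean of a gene's sets 3 and 0 (2618 higher over all genes; the means of Wipi2 and Vmp1, whose sets had differences of opposite sign, were not called), and only sets ending in plain _at, which are fewer, 3 higher (2751 and 2740 over all). Members called lower were 2 with a further quantile normalization, with array weights and with the replicate block, 6 with hybridization spike-ins and 7 with poly-A spike-ins, where 4 were higher. Over all probe sets these 2 centrings gave 2581 higher and 9548 lower, and 1269 and 15042, and over the 56 other autophagy genes 14 and 16, and 5 and 27. At an adjusted p under 0.01, a stricter threshold by construction, 2680 probe sets and 5 other autophagy genes were lower. Wipi1 1427323_s_at was never called higher and was called lower with poly-A centring (−0.45, adjusted p = 0.00101 in limma). This set changed sign with array weights (0.0082). With single arrays left out it ranged from −0.12 to 0.035, positive without starved replicate 1, starved replicate 3 or control replicate 1. Wipi2 1429367_at changed sign with poly-A centring (−0.0040). With the replicate block Wipi1 1452392_a_at became called lower (−0.26, adjusted p = 0.0417), with 7 members higher and 3954 and 3844 of all probe sets called; it changed no other member's call. Same-numbered starved and control arrays did not deviate together (correlations −0.05, −0.01 and −0.03; 0 of the 6 arrays correlated best with the array of its own number), so the numbers were not taken as pairs. Leaving out 1 array gave 7 members higher each time and 1 to 2 lower, 3478 to 4116 probe sets higher and 3255 to 4118 lower, 23 to 28 other autophagy genes higher and 6 to 10 lower (6 without starved replicate 3, control replicate 1 or control replicate 2), and 0.50 to 0.68 for the Wipi1 gap. That gap was 0.0030 with the mean of all Wipi1 sets and 0.12 with the mean of all sets of each member, alternatives chosen after seeing the data. With 3 arrays per group the precision is low, most of all for dim sets.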
